A study of Homo sapiens with 12 samples.

Results

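The genes described here encode the last steps of mitochondrial respiration: subunits and assembly factors of complex III, cytochrome c, subunits of complex IV and subunits of complex V. They were chosen by name from the table of the PC-3M line, as protein-coding symbols that begin with UQC, COX4 to COX8 or ATP5, together with CYC1 and CYCS. Where a symbol had several transcripts, the transcript with the highest mean over the 6 libraries stood for it. The rule gave 50 genes of 24359 symbols: 13 of complex III, cytochrome c, 17 of complex IV, 18 of complex V, and ATP5SL, whose name matches but whose product (DMAC2) acts in the assembly of complex I. Their levels were compared between cells given siRNA against KMT9a and cells given control siRNA.

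Complex III (cytochrome bc1) passes electrons from ubiquinol to cytochrome c and pumps protons across the inner mitochondrial membrane. Cytochrome c carries the electrons to complex IV (cytochrome c oxidase), which hands them to oxygen and pumps more protons. Complex V (ATP synthase) lets the protons back through a rotating ring of c subunits, and the rotation drives ATP synthesis in its F1 head. Each of the 3 complexes also contains subunits encoded in mitochondrial DNA, which the naming rule does not cover and which were not analysed here.

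RNA was sequenced from 12 libraries in 4 groups of 3. PC-3M cells descend from the human prostate cancer line PC-3 and were selected for metastasis, whereas MCF10A cells are breast epithelium that is not tumorigenic; in each line 3 libraries came from cells given control siRNA and 3 from cells given KMT9a siRNA. KMT9a is the methyltransferase encoded by N6AMT1, and the series title names its part in the metabolism of castration-resistant prostate cancer cells as the question. The labels give the siRNA, a biological replicate number and a passage number, which is 11 for every PC-3M and 13 for every MCF10A sample and so cannot be told apart from the line, but not the siRNA sequence or dose or the time after transfection, and they do not say whether replicates were separate cultures, so the p-values speak only for the spread among these libraries.

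Reads in genes numbered 40236218 to 53401602 per PC-3M library, with each end of a read pair counted, and 180345 to 253987 per MCF10A library. Levels are given as CPM, counts scaled to a common library total. A floor of 3 read pairs corresponds to 0.112 to 0.149 CPM in a PC-3M library and to 23.6 to 33.3 CPM in an MCF10A library. N6AMT1 fell in PC-3M from 11.5 ± 0.529 to 2.81 ± 0.213 CPM (SD, n = 3; log2 fold change -2.02, adjusted p = 3.47e-09), with no overlap of the groups, and had 0 reads in all 6 MCF10A libraries. In PC-3M all 5 epithelial markers and the prostate marker HOXB13 were at 1 CPM or more in the controls, whereas the prostate markers KLK3 and FOLH1 were near 0. HOXB13 fell from 270.1 ± 16.1 to 126.0 ± 11.9 CPM (log2 fold change -1.10, adjusted p = 1.63e-08). The summed CPM of the 5 epithelial markers was 1034 to 1057 with control siRNA and 1780 to 2073 with KMT9a siRNA (KRT8, KRT19 and CDH1 rose, while KRT18 and EPCAM fell), and that of 4 basal markers 0.354 to 0.425 and 0.863 to 1.33. The summed CPM of 4 leukocyte markers, nearly all of it CD68, was 44.1 to 49.5 with control siRNA and 55.8 to 69.2 with KMT9a siRNA, that of 4 fibroblast markers 126 to 135 and 41.5 to 52.8, and that of 3 endothelial markers 0.259 to 0.548 and 2.00 to 2.28. The basal rise came mostly from TP63, at a mean of 0.156 CPM with control siRNA and 0.975 CPM with KMT9a siRNA. The basal marker KRT5 went from 0.191 to 0.0318 CPM, and KRT14 and KRT17 were near 0. The fibroblast sum was nearly all COL1A1 and COL1A2, which both fell (log2 fold change -0.60 and -2.71). The endothelial sum was mostly PECAM1. The endothelial marker VWF and the fibroblast marker DCN were at 0 throughout, and the part of these markers in the results was not tested. KMT9a siRNA replicate 2 stood apart from both other KMT9a siRNA libraries of its line: the chi-square per degree of freedom between them was 21.7 and 26.1 in PC-3M, against 4.67 between the remaining pair, and 25.1 and 39.4 in MCF10A, against 4.90. In MCF10A, a basal-like line, the basal keratin KRT17 had 1324 read ends over the 6 libraries, KRT14 had 79 and KRT5 had 0.

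Of the 50 genes, 46 passed the filter on low values in PC-3M. After KMT9a siRNA 38 of them were lower and 5 higher at an adjusted p under 0.05, and 3 (COX6B2, ATP5L2 and ATP5S) were not called. Among all 14958 genes tested, 37.3% were lower and 37.2% higher, 74.5% together, so a call by itself was common in this comparison. The median log2 fold change of the 46 genes was -0.70, beside 0.00099 over all tested genes, and 12 of the 46 were lower by at least 2-fold, beside 11.8% of all tested genes. In 38 of the 46 all 3 KMT9a siRNA libraries lay below all 3 control libraries, and in 5 they lay above, while over all tested genes these shares were 38.4% and 38.6%. COX8C, counted in each of these lower groups, passed the filter only through its control libraries. Without KMT9a siRNA replicate 2 the counts were 39 lower and 5 higher. Sequencing of bulk RNA gives each gene's share of the pool, so fewer cells that express a gene and less of its RNA per cell cannot be told apart.

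The genes are short and abundant, with a median transcript length of 980.5 bases and a median level of 143 CPM, beside 2819 bases and 21.7 CPM over all tested genes. Short abundant transcripts as a class were lower more often than higher: in a class set after the values were seen, of 626 tested genes with a transcript under 1500 bases and a mean of at least 50 CPM, 58.1% were lower and 27.6% higher, and their median log2 fold change was -0.28. Of the 28 respiratory genes that fall in that class, 25 were lower, with a median of -0.72.

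**Figure D1:**
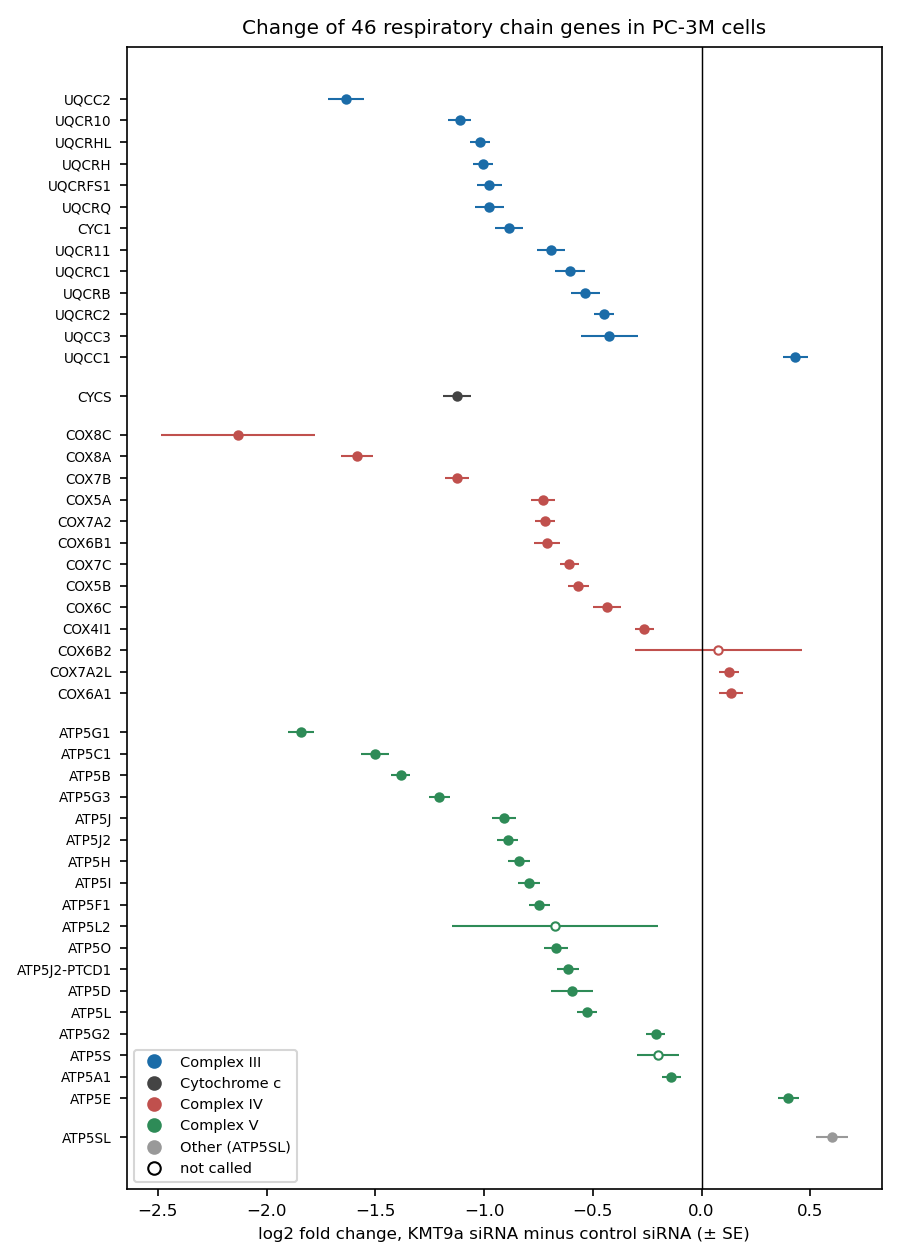
Log2 fold change (KMT9a siRNA minus control siRNA, x axis) with its standard error for the 46 tested genes in PC-3M, 1 row per gene, grouped and coloured by complex. Filled points passed an adjusted p of 0.05 and open points did not. All but 6 points lie left of 0, and UQCC1, ATP5E and ATP5SL are the largest of those to its right.

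The complexes were compared by counts and medians. Complex III had 12 of 13 tested genes lower, with a median of -0.88. Complex IV had 10 of 13 lower, COX8C included, with a median of -0.61. Complex V had 15 of 18 lower, with a median of -0.71. Among all tested genes 37.3% were lower, and in the short abundant class 58.1%. These counts include assembly factors, isoforms, gene copies and other associated genes. Over the common subunits alone they were 9 of 9 in complex III, 9 of 10 in complex IV and 14 of 15 in complex V. The medians were then -0.88, -0.66 and -0.79. When levels were summed per kilobase of transcript over the common subunits, complex III stood at 1551 CPM per kilobase in the controls and at 875 after KMT9a siRNA, 56.5% of the control level. Complex IV went from 5064 to 3335 on the same scale, 65.9% of control, and complex V from 4335 to 2570, 59.3% of control. Single genes weigh heavily in these sums, and each depends on the length of its transcript row. In complex IV COX7C held 1755 CPM per kilobase in the controls and 1151 after KMT9a siRNA. In complex V ATP5B held 1231 and 472. In the separate libraries the summed complex III level was 1563, 1542 and 1547 CPM per kilobase with control siRNA and 859, 905 and 862 with KMT9a siRNA. For complex IV it was 5059, 5068 and 5065 and then 3361, 3311 and 3333, and for complex V 4332, 4345 and 4329 and then 2528, 2603 and 2579. The spread between replicates was therefore far smaller than the drop in each complex, although no test was made of the sums or of the order of the complexes.

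**Figure D2:**
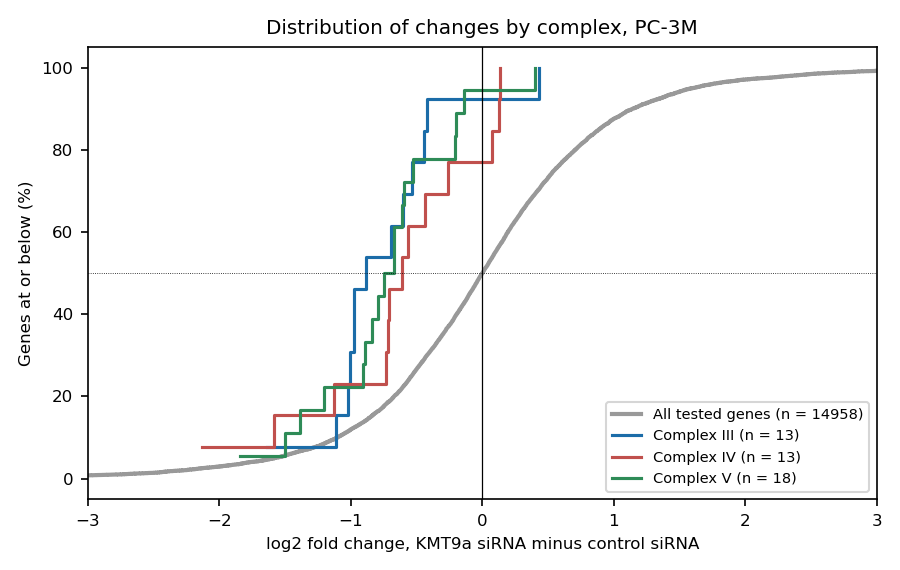
Cumulative share of genes (y axis, percent) at or below each log2 fold change (x axis) in PC-3M, for all 14958 tested genes in grey and for the tested genes of complexes III, IV and V in colour. The curves of the 3 complexes lie to the left of the grey curve over most of their range, and cross the 50% line between -0.61 and -0.88.

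In complex III, all 9 common subunits fell, by 0.45 to 1.11 on the log2 scale, whereas 37.3% of all tested genes were lower. UQCR10, a small membrane subunit (chr22:30163358-30166402 on hg19, plus strand), was at 114, 108 and 111 CPM in the control libraries and at 50.98, 50.1 and 52.9 CPM in the KMT9a libraries (log2 fold change -1.11, SE 0.053, adjusted p = 1.42e-09). UQCRH, the hinge protein at the cytochrome c docking site (chr1:46769380-46782447), was at 216, 218 and 219.7 CPM with control siRNA and 107, 109 and 109 CPM with KMT9a siRNA (log2 fold change -1.01, SE 0.045, adjusted p = 8.24e-10). Both genes were at about the same level in all libraries of a group and did not overlap between groups. UQCRHL, an intronless copy of UQCRH (chr1:16133657-16134194), was at 186, 189 and 183 CPM and 89.9, 92.6 and 92.3 CPM in the same order (log2 fold change -1.02, SE 0.047, adjusted p = 1.03e-09). The copies are near-identical and can share reads, so the UQCRHL values are uncertain: its level per length relative to UQCRH went from 0.824 ± 0.0185 to 0.817 ± 0.00663 (exact permutation test, two-sided, p = 0.6), and the 2 rows are not independent observations.

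Among the catalytic subunits, UQCRFS1, the Rieske iron-sulfur protein that accepts the first electron from ubiquinol, fell with a log2 fold change of -0.98, and CYC1, the cytochrome c1 that passes it on, with -0.88. The core proteins of the matrix side fell less, UQCRC1 with -0.60 and UQCRC2 with -0.45. UQCRQ, UQCR11 and UQCRB, further small subunits, had values of -0.98, -0.69 and -0.53.

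The 3 assembly factors of complex III went in different directions. UQCC2, which works with UQCC1 on newly made cytochrome b (chr6:33665346-33679504), was at 48.1, 48.5 and 48.8 CPM in the controls and 13.9, 17.6 and 15.4 CPM in the knockdown (log2 fold change -1.63, SE 0.084, adjusted p = 2.49e-09), the largest drop in the complex. Its partner UQCC1 (chr20:33890369-33999945) was at 41.2, 44.03 and 44.1 CPM and rose to 57.3, 60.2 and 56.8 CPM (log2 fold change 0.43, SE 0.058, adjusted p = 2.23e-05), with no overlap of the groups. The level of UQCC2 relative to UQCC1, per kilobase, went from 5.48 ± 0.185 to 1.31 ± 0.123 (SD, n = 3, exact permutation test, two-sided, p = 0.1, the smallest p that 3 against 3 libraries allow). Since UQCC2 fell and UQCC1 rose, each without overlap, this p was fixed in advance and adds no support. UQCC3, another factor for cytochrome b, had 19.6, 15.8 and 19.6 CPM in the controls and 12.5, 16.9 and 11.9 CPM after KMT9a siRNA (log2 fold change -0.42, SE 0.13, adjusted p = 0.0106); it had the smallest change of the complex, its groups overlapped, and without control siRNA replicate 1 its adjusted p was 0.0513.

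Cytochrome c itself, CYCS (chr7:25158270-25164980), was at 481, 479 and 459 CPM with control siRNA and 227, 194 and 231 CPM with KMT9a siRNA (log2 fold change -1.13, SE 0.064, adjusted p = 6.40e-09). All 3 knockdown libraries lay below the lowest control, and replicate 2 was the lowest of them. HCCS, the enzyme that attaches heme to cytochrome c, went from 60.2 ± 2.41 to 40.7 ± 3.66 CPM (log2 fold change -0.57, adjusted p = 1.22e-05).

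In complex IV, 9 of the 10 common subunits fell and COX6A1 rose, beside 37.3% lower and 37.2% higher among all tested genes. The median of the 10 was -0.66. COX8A, the smallest membrane subunit (chr11:63742079-63744015), was at 156, 144 and 157 CPM in the controls and 46.03, 56.2 and 50.6 CPM after KMT9a siRNA (log2 fold change -1.58, SE 0.072, adjusted p = 8.27e-10). COX7B (chrX:77154961-77160881), another single-helix subunit, was at 313, 312 and 302 CPM and then 147, 132 and 147 CPM (log2 fold change -1.12, SE 0.053, adjusted p = 1.25e-09). COX5A, a matrix-side subunit (chr15:75212617-75230495), had 139, 142 and 134 CPM with control siRNA and 82.3, 79.7 and 88.5 CPM with KMT9a siRNA (log2 fold change -0.73, SE 0.055, adjusted p = 9.79e-08). For each of the 3 genes every knockdown library lay below every control library.

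COX7A2 was at 231, 235 and 238 CPM in the controls and 148, 138 and 142 CPM in the knockdown (log2 fold change -0.72, SE 0.048, adjusted p = 2.81e-08), and COX6B1, on the intermembrane face, at 149, 149 and 147 and 86.1, 99.6 and 87.1 CPM (log2 fold change -0.71, SE 0.061, adjusted p = 3.08e-07). COX7C, COX5B and COX6C had log2 fold changes of -0.61, -0.57 and -0.43. The smallest drop belonged to COX4I1, the isoform of the regulatory subunit 4 used in most tissues. It went from 455, 465 and 453 to 377, 393 and 374 CPM (log2 fold change -0.26, SE 0.044, adjusted p = 1.42e-04), still without overlap.

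COX6A1 and COX7A2L of complex IV were slightly higher, on calls that depend on the processing. COX6A1 was at 181, 178 and 185 CPM in the controls and 201, 212 and 186 CPM after KMT9a siRNA (log2 fold change 0.14, SE 0.055, adjusted p = 0.0391). COX7A2L, which joins complexes III and IV in supercomplexes, was at 167, 163 and 161 CPM and 176, 177 and 183 CPM (log2 fold change 0.13, SE 0.046, adjusted p = 0.0257). In both the groups stayed apart, for COX6A1 by a narrow margin. Scaled by library totals alone both values turned below 0, -0.034 for COX6A1 and -0.045 for COX7A2L, while the median of all genes shifted to -0.17, so that relative to that median both remained higher. The call for COX6A1 was lost without control siRNA replicate 1, 2 or 3 or KMT9a siRNA replicate 1 (adjusted p 0.0772 to 0.148), and that for COX7A2L without any 1 library other than KMT9a siRNA replicate 2 (adjusted p 0.0568 to 0.130). The ratio of COX8A to COX6A1 per kilobase moved from 0.900 ± 0.0267 to 0.274 ± 0.0249 (exact permutation test, two-sided, p = 0.1). Since COX8A fell and COX6A1 rose, each without overlap, this p was fixed in advance and adds no support.

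Second isoforms of complex IV subunits, which are known from particular tissues such as heart, muscle, lung and testis, were at or near 0 in PC-3M. COX4I2, COX6A2 and COX7B2 had 0 read ends in all 6 libraries. COX7A1 had 4, 0 and 1 read ends with control siRNA and 5, 6 and 1 with KMT9a siRNA and was not tested. COX6B2 was at 0.159, 0.204 and 0.195 CPM and 0.148, 0.245 and 0.209 CPM (log2 fold change 0.08, SE 0.38, adjusted p = 0.866), with overlapping groups. COX8C, the testis isoform of COX8A, had 29, 26 and 40 read ends in the controls and 5, 4 and 3 in the knockdown (log2 fold change -2.13, SE 0.36, adjusted p = 1.35e-04). Per kilobase it stood at 1.07 CPM in the controls, beside 302 CPM for COX8A. Its knockdown libraries were under 3 read pairs each, so the fitted fold change carries a wide error. COX8C passed the filter on low values only through its control libraries, so its call is not taken as support for a drop. Counts of lower genes include it.

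**Figure D3:**
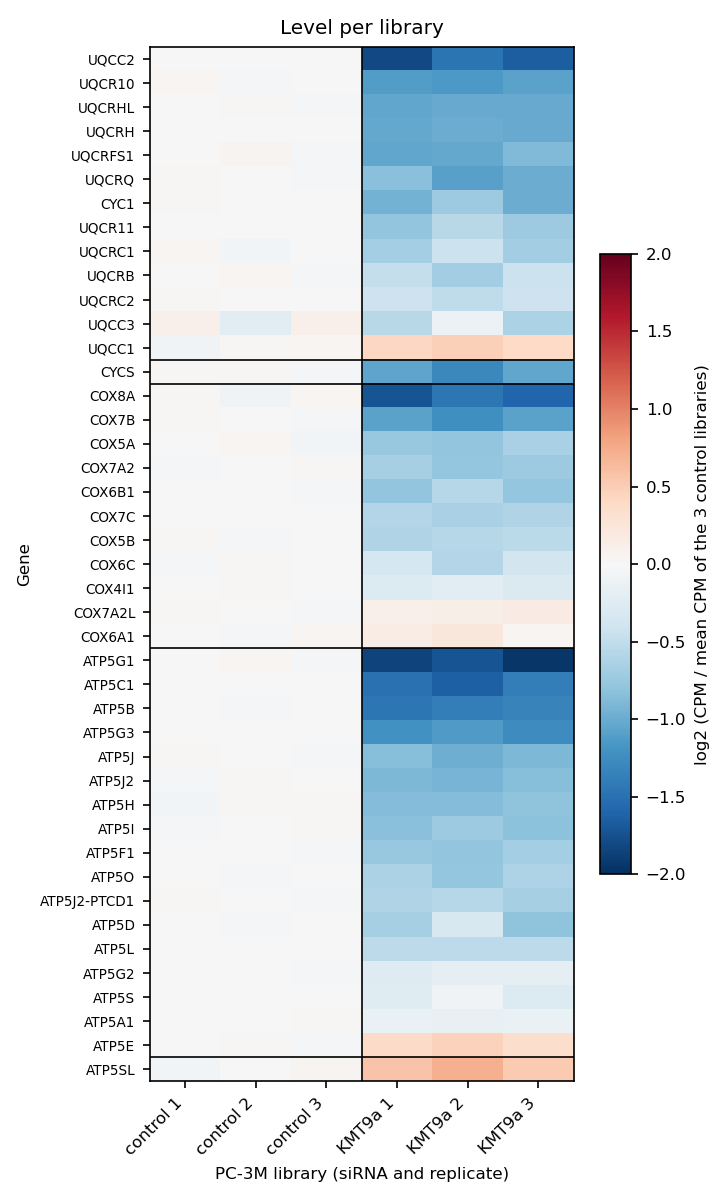
Level of each gene with a control mean of at least 5 CPM (rows, ordered by complex and change) in each PC-3M library (columns), as log2 of its CPM over the mean of the 3 control libraries; blue is below and red above that mean. The 3 control columns are nearly white, and the 3 KMT9a siRNA columns are blue in nearly all rows, apart from UQCC1, COX7A2L, COX6A1, ATP5E and ATP5SL.

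KMT9a siRNA replicate 2 did not shift the genes in 1 direction. It was above both other knockdown libraries for 23 of the 46 genes, below both for 17 and between them for 6, beside 40.3%, 40.4% and 19.2% of all tested genes. Per complex, its median log2 deviation from the control mean over common subunits was -0.72 in complex III, where the other knockdown libraries had -0.84 and -0.88. In complex IV the 3 knockdown libraries had -0.63, -0.62 and -0.62, and in complex V -0.84, -0.79 and -0.80, in replicate order.

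In complex V, 14 of 15 common subunits fell, among them all 4 of the stalk, all 3 c subunit genes, all 3 further membrane subunits and 4 of 5 subunits of the F1 head. Over all tested genes 37.3% were lower. ATP5B, the beta subunit that carries the catalytic site (chr12:57031959-57039852), was at 2269, 2213 and 2253 CPM in the control libraries and at 829, 860.3 and 894 CPM in the KMT9a libraries (log2 fold change -1.38, SE 0.045, adjusted p = 5.28e-11). ATP5C1, the gamma subunit that turns inside the head (chr10:7830093-7849762), was at 135, 135 and 133 and 47.7, 43.4 and 51.7 CPM (log2 fold change -1.50, SE 0.065, adjusted p = 5.43e-10). ATP5A1, the alpha subunit that alternates with beta in the head (chr18:43664110-43678287), was at 337, 338 and 343 CPM and 309.9, 306 and 309 CPM (log2 fold change -0.14, SE 0.043, adjusted p = 0.0106). Its groups did not overlap, but the change was the smallest in the complex, and without control siRNA replicate 3 its adjusted p was 0.0611.

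The epsilon subunit gene ATP5E (chr20:57603733-57607422) rose, from 172, 176 and 169 CPM to 224, 236 and 220.4 CPM (log2 fold change 0.40, SE 0.048, adjusted p = 8.08e-06), and ATP5D, the delta subunit next to it in the central stalk, had a log2 fold change of -0.59. Transcript proportions within the F1 head therefore moved. Per kilobase, ATP5B relative to ATP5A1 went from 6.77 ± 0.109 to 2.86 ± 0.112; the alpha and beta proteins occur in equal number in the enzyme. ATP5C1 relative to ATP5A1 went from 0.657 ± 0.0117 to 0.256 ± 0.0209, and ATP5B relative to ATP5E from 3.11 ± 0.0960 to 0.904 ± 0.0528. In each case the 3 knockdown ratios lay below the 3 control ratios (exact permutation test, two-sided, p = 0.1 for each, the smallest possible). After Benjamini-Hochberg adjustment over the 9 ratios computed it was 0.113. For ATP5B with ATP5E this separation followed from a fall and a rise that were each without overlap, so its p was fixed in advance. For ATP5B and ATP5C1 with ATP5A1 it followed from falls far larger than that of ATP5A1, so those p-values add no support either. The size of each ratio rests on dividing by the length of 1 transcript row per gene (1824 bases for ATP5B and 434 for ATP5E). Before that, ATP5B was at 861 CPM after KMT9a siRNA, beside 227 CPM for ATP5E.

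The c ring is built from 1 mature protein that 3 genes encode, ATP5G1, ATP5G2 and ATP5G3, which differ in the import sequence that is cut off. ATP5G1 (chr17:46970148-46973232) showed the largest drop of the abundant genes, from 230.4, 238 and 226 CPM to 64.1, 70.1 and 60.2 CPM (log2 fold change -1.84, SE 0.060, adjusted p = 5.75e-11). ATP5G3 (chr2:176040986-176046490) was at 238, 239 and 237 CPM in the controls and 102, 108 and 99.2 CPM in the knockdown (log2 fold change -1.20, SE 0.050, adjusted p = 3.63e-10). ATP5G2 (chr12:54058944-54070109) changed far less, from 286, 285 and 281 to 238, 249 and 249 CPM (log2 fold change -0.21, SE 0.045, adjusted p = 9.01e-04). All 3 were lower in every knockdown library than in any control library.

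As shares of the summed c subunit level per kilobase, ATP5G1 held 50.4%, 51.3% and 50.4% in the control libraries and 27.1%, 28.0% and 25.2% in the KMT9a siRNA libraries. ATP5G2 held 40.6%, 39.8% and 40.5% and then 65.4%, 64.5% and 67.6%. ATP5G3 held 8.98% ± 0.117 with control siRNA and 7.36% ± 0.160 with KMT9a siRNA (SD, n = 3). Per kilobase, ATP5G1 thus led in the controls and ATP5G2 in the knockdown. The order in the controls rests on dividing by the length of 1 transcript row per gene (567 and 875 bases), since before that ATP5G2 had the higher CPM in both groups. The low share of ATP5G3 rests on the same division, by a row of 3286 bases. Before it, ATP5G3 was at 237.7 CPM in the controls, beside 231.7 CPM for ATP5G1. The ratio of ATP5G1 to ATP5G2 per kilobase went from 1.26 ± 0.0273 to 0.407 ± 0.0309 (exact permutation test, two-sided, p = 0.1, or 0.113 after adjustment over the 9 ratios). ATP5G1 fell far more than ATP5G2, with little spread among replicates. The separation of the ratios followed from those values, so this p adds no support.

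**Figure D4:**
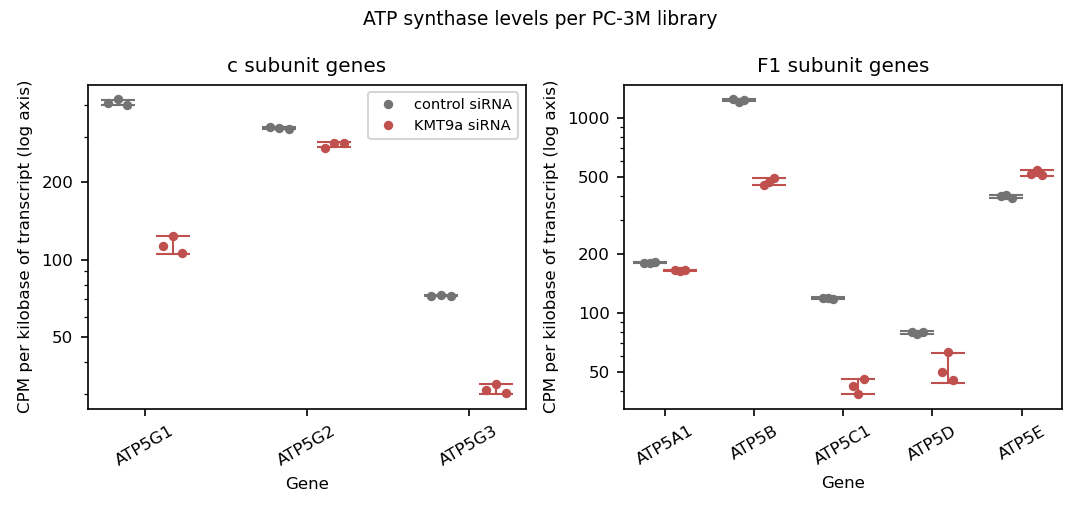
Level per kilobase of transcript (CPM per kilobase, log axis) of the 3 c subunit genes (left) and the 5 F1 head genes (right) in each PC-3M library; points are libraries and caps mark the mean ± SD of 3. On this scale ATP5G1 drops from above ATP5G2 to below it, and ATP5B drops to a level below ATP5E, which rises. In CPM, before division by transcript length, ATP5B stayed above ATP5E (861 and 227 CPM with KMT9a siRNA).

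All 4 genes of the stalk that holds the head against rotation fell by similar amounts on the log2 scale: ATP5J (subunit F6) with -0.91, ATP5H (subunit d) with -0.84, ATP5F1 (subunit b) with -0.75 and ATP5O (the oligomycin sensitivity protein) with -0.67. The membrane subunits ATP5J2 (f), ATP5I (e) and ATP5L (g) had -0.89, -0.79 and -0.53. ATP5J2-PTCD1, a readthrough transcript, had -0.61, but it shares exons with ATP5J2 and is uncertain for that reason. ATP5L2, a copy of ATP5L, was at 0.602, 0.518 and 0.212 CPM with control siRNA and 0.345, 0.356 and 0.105 CPM with KMT9a siRNA (log2 fold change -0.67, SE 0.47, adjusted p = 0.215), with overlapping groups. ATP5S, a factor associated with the enzyme, was at 8.54, 8.64 and 8.62 CPM and 7.25, 8.15 and 7.09 CPM (log2 fold change -0.20, SE 0.095, adjusted p = 0.0732), and without KMT9a siRNA replicate 2 its adjusted p was 0.0179. ATP5SL was at 18.1, 18.7 and 19.5 CPM in the controls and at 27.9, 30.6 and 27.00 CPM in the knockdown (log2 fold change 0.60, SE 0.073, adjusted p = 8.63e-06), the largest rise of all 46.

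The genes around these complexes were read from lists of subunits and factors, with levels as mean ± SD of 3 libraries and changes as log2 fold changes. Of 37 complex I subunits, 36 were lower and 1 higher, and their median was -0.73; NDUFA8 went from 139 ± 4.98 to 51.5 ± 1.53 CPM (-1.43, adjusted p = 1.67e-10) and NDUFA12 from 51.5 ± 0.747 to 15.9 ± 0.698 CPM (-1.69, adjusted p = 1.85e-10). Of 4 complex II subunits 3 were lower, with a median of -0.46, and SDHC, a membrane anchor, went from 111 ± 1.68 to 27.2 ± 1.25 CPM (-2.03, adjusted p = 1.70e-11), against -0.54 for the iron-sulfur subunit SDHB. NDUFA4, a complex IV subunit with a complex I name, had -0.87. In complexes I to V alike most tested subunits were lower, beside 37.3% of all tested genes and 58.1% of the short abundant class.

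Counts of assembly factors and associated genes stand beside 37.3% lower and 37.2% higher among all tested genes. Among these factors, 2 of 3 further factors of complex III were lower (LYRM7 with -1.05 and BCS1L with -0.57, both of which act on the Rieske protein). Of 27 factors for complex IV assembly and its heme and copper supply, 20 were lower and 3 higher, with a median of -0.60; COA4 had -1.22 and SLIRP, which stabilises mitochondrial messenger RNAs, -1.05. Of 7 genes that act in complex V assembly or are associated with the complex, 6 were lower and 1 higher, with a median of -0.50. Among them C7orf55 (FMC1) had -1.59 and ATPAF1, a chaperone of the beta subunit, -0.88. Of 8 genes of cristae organisation 6 were lower and 2 higher, with a median of -0.94; MINOS1 had -1.33 and APOO -1.35.

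The adenine nucleotide, phosphate and outer membrane channel genes had 4 of 6 tested members lower and 1 higher, beside 37.3% and 37.2% of all tested genes. SLC25A4, an exchanger of ADP for ATP, went from 23.5 ± 0.412 to 6.38 ± 0.618 CPM (-1.88, adjusted p = 1.29e-09), while SLC25A5, another such exchanger, had -0.64. Of 14 nuclear regulators of respiratory genes 7 were lower and 2 higher, with a median of -0.34, beside the same shares of all tested genes. TFB1M had -1.09 and TFAM, which packages mitochondrial DNA and starts its transcription, -0.88.

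Promoter sequences were matched for 36 of the 50 genes, from a RefSeq table that gives the bases before each gene's start on GRCh38.p14. Respiratory genes are known to carry sites for NRF1 and for ETS family factors such as GABPA near their starts, so these motifs were looked up in the 250 bases before each start, on both strands. The NRF1 motif was searched as GCGCA, any base, then GCGC, and occurred in 9 of the 36 promoters (25%), beside 5.53% of 27305 promoters of the same length. The ETS motif CCGGAAG (complement CTTCCGG) also occurred in 9 of the 36 (25%), beside 8.82%. The YY1 motif AAGATGGCG occurred in 1 (2.78%, beside 0.641%), the letters CCAAT in 16 (44.4%, beside 33.0%) and TATAAA in 4 (11.1%, beside 11.1%).

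Of the 28 matched genes that were lower, COX8C among them, 8 held the NRF1 motif and 8 the ETS motif. Of the 6 matched genes that were tested and not lower, 1 held each. CCAAT occurred in 9 of the 28, in 5 of the 6 and in both matched genes that were not tested, COX6A2 and COX7B2. The last 120 bases before the start are printed below for 8 genes, picked after their values were seen. Of these, 4 fell (a Rieske protein, a small complex III subunit, a gamma subunit and a stalk subunit). The others form 2 pairs that set a gene that fell beside a gene that rose, UQCC2 with UQCC1 and COX8A with COX6A1. The rise of COX6A1 was slight, and its call depended on the processing. Capitals mark the NRF1, ETS and YY1 letters, each sequence runs 5′ to 3′ on the strand of the gene, and coordinates are GRCh38.p14.
UQCRFS1 at chr19:29213152-29213271, minus strand: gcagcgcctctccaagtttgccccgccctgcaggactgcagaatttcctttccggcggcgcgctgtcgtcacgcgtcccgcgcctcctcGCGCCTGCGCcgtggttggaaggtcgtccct
UQCR11 at chr19:1605463-1605582, minus strand: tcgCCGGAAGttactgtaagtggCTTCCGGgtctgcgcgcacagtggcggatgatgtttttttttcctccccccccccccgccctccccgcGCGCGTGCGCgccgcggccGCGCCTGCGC
ATP5C1 (ATP5F1C in RefSeq) at chr10:7788057-7788176, plus strand: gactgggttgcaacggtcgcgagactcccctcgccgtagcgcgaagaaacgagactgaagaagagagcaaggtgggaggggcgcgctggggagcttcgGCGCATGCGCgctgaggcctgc
ATP5J (ATP5PF in RefSeq) at chr21:25735055-25735174, minus strand: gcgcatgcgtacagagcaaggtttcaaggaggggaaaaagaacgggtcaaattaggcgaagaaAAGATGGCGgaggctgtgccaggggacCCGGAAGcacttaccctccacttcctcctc
UQCC2 at chr6:33711701-33711820, minus strand: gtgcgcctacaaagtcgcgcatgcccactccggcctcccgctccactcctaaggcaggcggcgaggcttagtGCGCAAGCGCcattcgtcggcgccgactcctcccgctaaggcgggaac
UQCC1 at chr20:35411974-35412093, minus strand: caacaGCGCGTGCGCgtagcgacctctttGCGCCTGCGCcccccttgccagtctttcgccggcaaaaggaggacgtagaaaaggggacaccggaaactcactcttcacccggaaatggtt
COX8A at chr11:63974500-63974619, plus strand: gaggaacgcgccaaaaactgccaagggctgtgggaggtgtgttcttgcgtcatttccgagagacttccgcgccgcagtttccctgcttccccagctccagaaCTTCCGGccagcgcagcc
COX6A1 at chr12:120437993-120438112, plus strand: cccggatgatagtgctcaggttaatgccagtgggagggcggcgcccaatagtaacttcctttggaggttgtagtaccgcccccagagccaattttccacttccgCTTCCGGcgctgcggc
UQCRFS1, ATP5C1 and UQCC2 each held 1 NRF1 match in this window and UQCR11 held 2, with 2 ETS matches before them. UQCC1, which rose, also held 2 NRF1 matches. COX8A and COX6A1 each held 1 ETS match close to the start, and their log2 fold changes were -1.58 and 0.14. The NRF1 letters of ATP5C1 match on both strands at the same place and are counted as 1 match. No other matches overlap in these windows. A match is a run of letters and no evidence of binding, and the motifs were not tested against the changes.

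In MCF10A nearly all of the same genes were at or near 0. Of the 50 genes, 24 had 0 read ends in all 6 libraries and 26 had at least 1, and of 4724 read ends over all 50 genes ATP5G3 alone held 4640 (98.2%). The other 49 genes together held 84 read ends, 0.00679% of all reads in genes, beside 0.869% in PC-3M; at the mean share in PC-3M controls, 1.11%, they would have held 13690. ATP5B, the gene with the most reads of the 50 in PC-3M, had 6, 2 and 4 read ends in MCF10A controls and 0, 4 and 2 after KMT9a siRNA. COX7B had 4, 0 and 0 and then 3, 2 and 0, and none of the other 23 detected genes exceeded 5 read ends over all 6 libraries. Genes used by nearly every cell, CYCS, COX4I1 and ATP5G2 among them, are listed at 0 in all 6 MCF10A libraries. The cause of the shortfall against the PC-3M share was not tested, and whether the MCF10A values represent the whole RNA of these cells is not known here. For these genes the MCF10A values allow no statement on a change.

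ATP5G3 was the 1 gene of the 50 that could be tested in MCF10A, where 5 of 1043 tested genes (0.479%) were called in either direction. It had 752, 884 and 798 read ends with control siRNA and 573, 991 and 642 with KMT9a siRNA. Scaled, these were 3587, 3909 and 3476 CPM in the controls and 3040, 8040 and 2462 CPM after KMT9a siRNA (log2 fold change 0.10, SE 0.41, adjusted p = 0.887). The groups did not fall apart in 1 direction: KMT9a siRNA replicate 2 was above all controls and the other knockdown libraries were below them, and without that library ATP5G3 was called lower (log2 fold change -0.43, adjusted p = 0.0276). With all libraries the MCF10A value also turned below 0 with library totals alone (-0.22) and with no filter (-0.032), without a call. The change in PC-3M minus that in MCF10A was -1.31 (SE 0.415, z test of the difference, adjusted p = 0.00963 over 1016 genes tested in both lines, of which 26.9% differed). Without KMT9a siRNA replicate 2 of both lines the difference was -0.80 (adjusted p = 1.59e-07), and without control siRNA replicate 1 or 3 it did not pass the threshold (adjusted p = 0.0683 and 0.0749).

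The authors' deposited table for PC-3M calls 38 of the 46 genes lower and 3 higher at its adjusted p under 0.05. For 44 of the 46 its call was that of the limma fit; the exceptions were COX6A1 and COX7A2L, with adjusted p of 0.126 and 0.143 in the authors' deposited table.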

How the data were processed

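The submitters' processing notes name STAR, HOMER, edgeR and hg19, without versions or settings; strand handling is not given in the sources used here. Per the file headers, the authors deposited 1 table per line with 38763 RefSeq transcript rows, a scaled signal per library and their log2 fold changes and adjusted p-values. The signal is not raw counts, but 100% of PC-3M and 99.9% of MCF10A values above 0 were whole multiples of a step per library (tolerance 0.1 step), which gave whole read ends. The main test was limma 3.58.1 with a mean-variance trend (R 4.3.3) on log2(value + 1) after TMM scaling, within each line, after the edgeR 4.0.16 filter (minimum count 10, minimum total 15), with Benjamini-Hochberg adjustment over all tested genes and a threshold of 0.05. These fold changes understate the change of low genes. On recovered reads, edgeR called 5552 genes lower and 5595 higher in PC-3M, and 5 and 1 in MCF10A. CPM are TMM-scaled and relative to tested genes; levels of different genes were compared per kilobase. The difference between lines was a z test. Floors cover counting error only.

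The members and gene lists, and the rule for naming genes, were chosen with earlier results of these data known. The rule names, per complex, the 4 largest called changes, the smallest change and called changes against the majority, with CYCS, the paralog sets, and 2 called genes of smallest p per list. On simulated data for PC-3M over 14814 genes, the test found 77.6% of changes of 1.5-fold, 87.0% of those of 2-fold and 100% of those of 4-fold, with 11 calls among 14614 unchanged genes. The simulation changed only 67, 69 and 64 genes at these sizes, whereas 74.5% of tested genes were called in the PC-3M data. Its rates therefore need not hold for that comparison. For MCF10A, over 994 genes, it found 3.28%, 17.6% and 81.5%. Alternatives varied scaling, test (DESeq2 1.42.0 included), pseudocount, filter, transcript row, threshold, replicate block and libraries.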

Additional observations from a re-analysis of the deposited data

Results flagged for a closer look

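The log2 fold change of ATP5G3 differed between the lines, by -1.31 (PC-3M minus MCF10A; SE 0.415, z test, adjusted p = 0.00963). In PC-3M it was lower in 3 of 3 KMT9a siRNA libraries than in any control (-1.20), and in MCF10A 2 of 3 knockdown libraries were below and 1 above all controls (0.10). Without control siRNA replicate 1 or 3 of both lines the difference did not pass the threshold (adjusted p = 0.0683 and 0.0749). Without KMT9a siRNA replicate 2 it was -0.80, and ATP5G3 was then called lower in MCF10A as well (-0.43, adjusted p = 0.0276). It was the 1 gene of the 50 for which both lines gave a test.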

How the results depend on the processing

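Of the 46 tested genes, 40 kept both their call and the sign of their change under all 16 settings that gave a call. With library totals in place of TMM the median of all genes was -0.17, COX7A2L had -0.045, COX6A1 -0.034 and COX6B2 -0.065; COX6B2 also turned below 0 without control siRNA replicate 1 (-0.013) or KMT9a siRNA replicate 2, with values of -0.053 to 0.24 as each library was left out. The number of genes called higher was 3 with library totals, with the replicate block and at an adjusted p under 0.01, and 3 to 5 with a library left out; for complex IV it was 0, 0 and 0 under these settings, 1 with no filter, and 0 to 2 with a library left out. The median of all members was -0.87 with library totals, -0.72 with DESeq2 and -0.72 with a pseudocount of 0.25, and -0.72 to -0.70 with a library left out. Complex III had -1.06 with library totals. Complex IV had -0.78 with library totals, -0.61 with DESeq2 size factors and -0.61 with DESeq2, -0.60 with no filter and -0.60 at a mean of at least 5 CPM, and -0.66 to -0.59 with a library left out. Complex V had -0.88 with library totals and -0.78 to -0.70 with a library left out. In MCF10A the genes called higher and lower were 0 and 1 with library totals, 26 and 25 with DESeq2, 20 and 48 with no filter, 0 and 0 with the replicate block, and 0 to 74 and 0 to 93 with a library left out, the highest without KMT9a siRNA replicate 2. ATP5G3 was then the 1 member called lower in MCF10A, where leaving out a library gave 0 to 1. The number of members that differed between lines was 0 to 1 with a library left out. The cause of these shifts was not tested.

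Same-numbered libraries did not deviate together (correlations -0.04, -0.02 and 0.04 in PC-3M, -0.07, 0.13 and 0.16 in MCF10A), so the numbers are not taken as pairs; with the replicate block COX7A2L and COX6A1 were not called (adjusted p = 0.0803 and 0.0745). The MCF10A values limit any comparison of lines: 49 of the 50 genes held 84 read ends, where the PC-3M control share would give 13690 at the same depth. In PC-3M depth limits COX6B2, COX7A1, COX8C and ATP5L2.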
